A study of Mus musculus with 8 samples.

Results

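Sca1-positive mouse cells that carried a non-target control shRNA construct (called NTC cells here) were compared with the embryonic stem cells (mESC) from which such cells are derived. The comparison used 4 of the 8 libraries and 2 of the 4 groups of the study, taken by the sample names in the deposited count table, with 2 libraries in each group. The study's other groups were untreated Sca1 cells and Sca1 cells with a knock-down of Set7, the lysine methyltransferase encoded by Setd7. Poly(A) RNA of mouse cells of the strain C57BL/6, all grown at 5.5 mM glucose, was sequenced, and reads were counted per transcript.

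The stem cells were kept with the cytokine LIF and were neither sorted nor transduced. For the NTC cells, stem cells were grown without LIF on gelatin for 4 days, and Sca1-positive cells were then collected with magnetic beads at a purity above 80% and grown without LIF for 2 to 8 population doublings. Lentivirus then delivered the MISSION non-target shRNA vector, a control hairpin meant to match no mouse gene, and puromycin at 1 µg/ml was applied for at least a week. Removal of LIF, the sort, the later growth, the virus and the drug all separate the groups, so their parts in a difference cannot be told apart. The untreated Sca1 cells went through the same steps without the virus and the drug, and their values are given where they bear on a result.

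LIF keeps mouse embryonic stem cells in the naive pluripotent state, in which Pou5f1 (Oct4), Nanog, Sox2 and a wider circle of transcription factors sustain self-renewal. When LIF is withdrawn, cells pass through a primed, epiblast-like state and can go on to mesoderm, which gives rise to smooth muscle, fibroblasts and the matrix they lay down. Sca1 is a surface protein encoded by Ly6a that marks several progenitor cells, and Sca1-positive cells from stem cell cultures are used as a source of smooth muscle cells.

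The stem cell libraries held 5920197 and 6788049 counts over all transcript rows and the NTC libraries 5692835 and 6004569. With 1 transcript row kept for each gene, the totals analysed were 4288553 and 5080266 and 4079756 and 4301485. Levels are given as CPM, a library's counts brought to a common total with edgeR's TMM factors, always with replicate 1 before replicate 2. The transcript NR_046233 took 11.5% of the gene counts of stem cell replicate 2 and 0.725% of those of replicate 1, against 0.526% and 0.403% in the NTC libraries. A set of 11 genes, NR_046233 among them, took 13.9% of the gene counts of stem cell replicate 2 and 0.819% of those of replicate 1. Others of the set were Cdk8 (329 and 10646 CPM in the stem cells), Rmrp (1.6 and 159 CPM), the histone gene H1f1 (0.92 and 16.95 CPM) and Snord15a (0.23 and 8.58 CPM). Why these RNAs were high in that library was not tested. With these genes included, the stem cell replicates differed far beyond sampling noise (chi-square of 54.4 per degree of freedom), the NTC replicates only slightly beyond it (1.54). The figure was not calculated without the 11 genes, so it does not give the spread of the other genes. Whether replicates are separate cultures is not in the labels, and the p-values reflect only how far these samples spread, which may be technical. The library names carry a code of unstated meaning. It is 34 for stem cell replicate 1 and NTC replicate 2, 56 for stem cell replicate 2 and 12 for NTC replicate 1, so only code 34 holds both groups.

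The gene that the label names did not separate the groups. Ly6a stood at 9.85 and 5.72 CPM in the stem cell libraries and 5.44 and 6.46 CPM in the NTC libraries. The groups overlapped, and the log2 fold change was -0.38 ± 0.39 (adjusted p = 0.483, quasi-likelihood test of edgeR, adjusted by the Benjamini-Hochberg method over all genes tested). All adjusted p-values below are from that test, and a standard error follows each log2 fold change. In the untreated Sca1 libraries Ly6a was at 12.98 and 4.42 CPM. The sort selected on the surface protein, which RNA counts do not measure, and the cells were grown on afterwards, so the name Sca1 is kept here as the label of the group.

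Setd7, which the knock-down construct of the study targets and the non-target construct does not, was at 11.2 and 16.5 CPM in the stem cells and 60.7 and 66.7 CPM in the NTC cells. It rose by a log2 fold change of 2.19 ± 0.19 (adjusted p = 9.67e-08), and by 2.52 between the 2 libraries of code 34. The untreated Sca1 cells were at 76.3 and 66.3 CPM, a difference of -0.17 ± 0.17 for NTC minus untreated that did not pass (adjusted p = 0.628), and the knock-down libraries had 14.01 and 10.8 CPM. Of 3 core pluripotency genes Sox2 alone passed the test. Nanog was at 193 and 196 CPM in the stem cells and 190.0 and 206 CPM in the NTC cells (log2 fold change of 0.02 ± 0.12, adjusted p = 0.897), and the groups overlapped. Pou5f1 was at 844 and 575 CPM and 548 and 542 CPM, a difference of -0.38 ± 0.15 that did not pass (adjusted p = 0.055). Its groups did not overlap, and the difference was -0.64 between the 2 libraries of code 34. Pou5f1 did pass without stem cell replicate 2 (-0.63, adjusted p = 0.000163), without the code 56 libraries (-0.63, adjusted p = 5.56e-10), an alternative chosen after seeing the data, and with DESeq2 (adjusted p = 0.0446). Without stem cell replicate 1 the difference was -0.08 (adjusted p = 0.624). Sox2 fell from 444 and 353 CPM to 312 and 269.9 CPM (-0.45 ± 0.13, adjusted p = 0.00977). That call was lost without stem cell replicate 1 (adjusted p = 0.0689) and without NTC replicate 2 (adjusted p = 0.168). Acta2, which encodes smooth muscle alpha-actin, was at 3.43 and 1.54 CPM in the stem cells and 271 and 282 CPM in the NTC cells, and rose by 6.79 ± 0.35 (adjusted p = 7.5e-08).

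**Figure D1:**
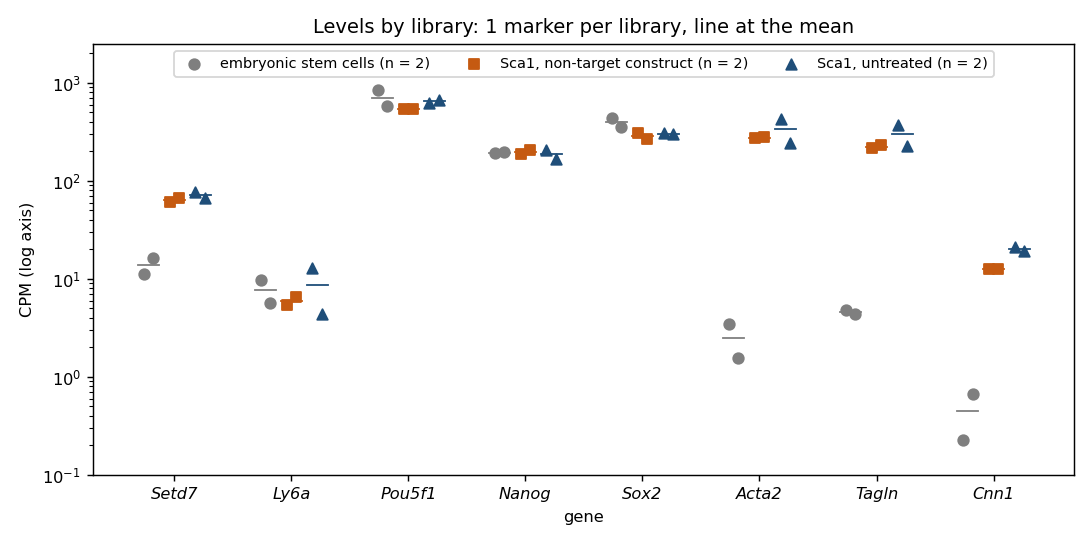
CPM on a log axis of the targeted gene, the sort marker, 3 pluripotency factors and 3 smooth muscle genes, with 1 marker per library and a line at each group's mean (n = 2 per group). Acta2, Tagln, Cnn1 and Setd7 of the NTC cells lie above both stem cell libraries, Nanog and Ly6a overlap with them, and the untreated Sca1 cells are shown for comparison.

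Of 13966 genes with enough counts for the test, 4898 (35.1%) differed between NTC cells and stem cells at an adjusted p of 0.05. Higher in the NTC cells were 2738 (19.6%) and lower were 2160 (15.5%), so that 55.9% of the changed genes were higher. With library totals in place of TMM factors the median log2 difference of all genes went from -0.005 to 0.118, and the split moved to 2912 higher and 1209 lower, or 70.7% higher. Past 2-fold, 1593 genes were higher (11.4%) and 774 lower (5.54%). Groups of 2 libraries that do not overlap were common, at 9488 genes (67.9%). The number of changed genes fell to 2906 without NTC replicate 1 and to 3047 without NTC replicate 2.

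The genes with the largest rises encoded matrix proteins, cell adhesion proteins, Hox factors and a cardiac actin. Col3a1, a fibrillar collagen, went from 0.229 and 0.22 CPM to 656 and 659 CPM. The stem cell libraries held only 2 counts of it against 5735 in the NTC libraries, a ratio of 2931 with an exact 95% counting interval of 811 to 24210. Tnc, the matrix glycoprotein tenascin C, had 1 count in the stem cells and was at 248 and 248 CPM in the NTC cells (ratio of 2207, interval 396 to 87220). Intervals and bounds of this kind cover counting error only. Col1a1 and Col1a2, the chains of collagen I, rose by 9.37 ± 0.27 and 7.64 ± 0.19, the first from 0.916 and 1.32 CPM to 788 and 739 CPM. Actc1, cardiac alpha-actin, had no count in either stem cell library and 48.5 and 55.7 CPM in the NTC cells, at least 155-fold higher when 3 counts over the stem cell group are taken as the floor. On the same floor Csf1, a growth factor of macrophages, was at least 81.4-fold higher, Postn (periostin) at least 80.8-fold, Hoxb3 at least 79.4-fold and Tmem119, a membrane protein of bone-forming cells and microglia, at least 78.03-fold. The protocadherins Pcdh18 and Pcdh7 and the large cadherin Dchs1, with 1 to 3 counts in the stem cells, had count ratios of 768 (137 to 30360), 285 (78.5 to 2357) and 268 (73.8 to 2217). The matrix protein Ccdc80 (285, 97.1 to 1384), the myelin and junction protein Pmp22 (219, 74.6 to 1065) and Hoxd4 (213, 58.5 to 1762) completed the 15 largest rises. Genes known only by a Gm, Rik or other clone or accession name were left out of these rankings of rises and falls, among them 1700108F19Rik, which fell by -4.54.

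The falls were smaller and the genes more varied. Trf, which encodes the iron carrier transferrin, fell from 39.4 and 33.7 CPM to 1.42 and 2.23 CPM (-4.29 ± 0.29, adjusted p = 3.68e-09). Slc13a5, a citrate transporter, fell from 54.5 and 62.9 CPM to 4.49 and 4.46 CPM (-3.70 ± 0.24), and Khdc3, a gene of the oocyte and early embryo, from 124 and 83.6 CPM to 7.33 and 8.69 CPM (-3.69 ± 0.22). Dazl, an RNA-binding protein of germ cells, fell by -2.93 ± 0.19, and Fgf10, an FGF ligand, by -3.39 ± 0.30. The other 10 of the 15 largest falls lay between -3.30 and -2.77. They were Xaf1, an inhibitor of the apoptosis inhibitor XIAP, St8sia6, a sialyltransferase, Bcl3, a partner of NF-kappaB, Ly6g6e, Efhc2, Pdzd3, Ak7, Parvb, a binding partner of integrin-linked kinase, the transcription factor Mitf and the growth factor Nrg2. In none of these 30 genes did the 2 groups overlap, which the choice of genes required.

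**Figure D2:**
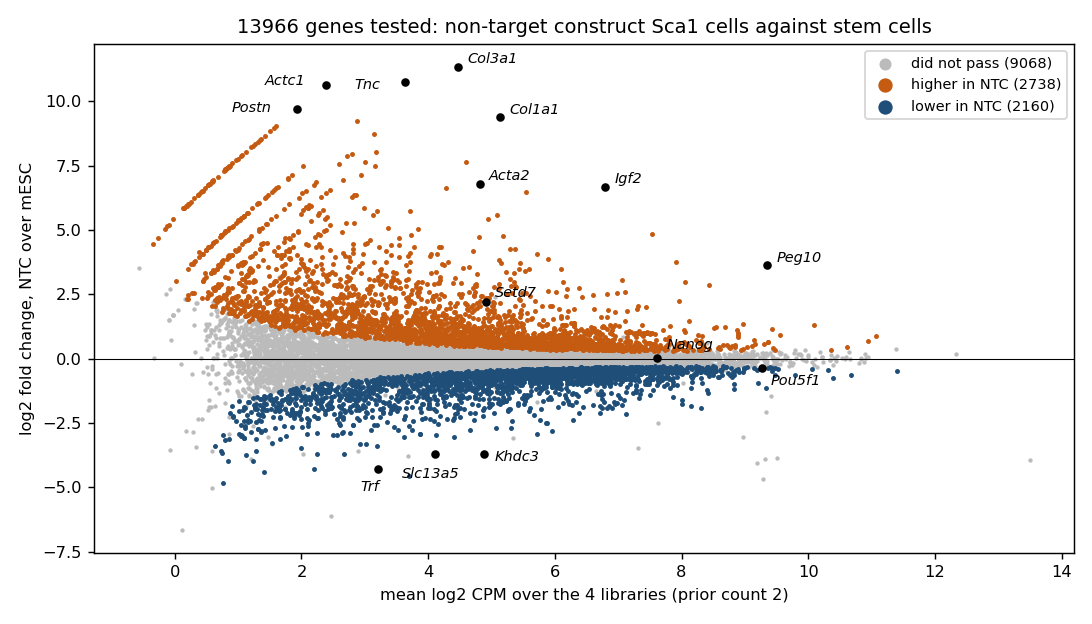
Each of the 13966 tested genes by its mean log2 CPM over the 4 libraries and its log2 fold change of NTC cells over stem cells, with 2738 higher genes in orange, 2160 lower genes in blue and selected genes named. The rises reach further from 0 than the falls, and the diagonal stripes at the left are genes with 0 or a few stem cell counts, whose fitted values depend on the prior count.

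Of 38 genes of naive and core pluripotency, 26 fell, 5 rose and 7 did not pass, with a median log2 difference of -0.77 against -0.005 for all genes. Over all tested genes 15.5% fell and 19.6% rose, the shares beside which the counts of this and the later lists stand. Klf4 fell from 154 and 130.3 CPM to 39.9 and 42.1 CPM (-1.79 ± 0.18, adjusted p = 5.47e-07), and Klf5 from 193 and 248 CPM to 63.3 and 53.9 CPM (-1.91 ± 0.16). Both are Kruppel-like factors of the naive state. Esrrb, an orphan nuclear receptor of the same network, fell from 703 and 658 CPM to 309 and 297 CPM (-1.17 ± 0.15). Tdgf1, the Nodal co-receptor, fell by -1.84 ± 0.15, and Zfp42 (Rex1), a common reporter of the naive state, by -0.74 ± 0.12. The lowest NTC value among these 5 genes was the 39.9 CPM of Klf4. The 5 risers were Dppa3 (from 5.27 and 3.08 CPM to 34.5 and 36.8 CPM, 3.09 ± 0.24), Lefty1 (1.38 ± 0.21), Mycn (1.27 ± 0.17), Nodal (0.69 ± 0.16) and Lin28a (0.54 ± 0.12). Dppa3 is a maternal and germline factor, Lefty1 and Nodal are an inhibitor and a ligand of one signalling pathway, Mycn is a growth regulator and Lin28a an RNA-binding protein. Fewer cells of a type and less RNA per cell cannot be told apart in these bulk libraries, so the falls give the level of the whole population.

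Of 15 genes of the primed epiblast, 7 rose and 3 fell, with a median of 1.35. Cldn6, a claudin of epiblast and early epithelia, rose from 13.97 and 13.6 CPM to 149.8 and 146 CPM (3.42 ± 0.16). Lef1, a Wnt transcription factor, rose by 1.74 ± 0.21, and Otx2, which drives the exit from the naive state, from 7.56 and 8.14 CPM to 18.9 and 19.4 CPM (1.28 ± 0.25). Fgf5, the usual marker of the primed epiblast, had 0 and 0.66 CPM in the stem cells and 2.13 and 1.11 CPM in the NTC cells and did not pass (adjusted p = 0.127). It was at 4.33 and 15.9 CPM in the untreated Sca1 cells, above the NTC cells (difference of -2.55 ± 0.61 for NTC minus untreated, adjusted p = 0.0243). It lost that call without untreated replicate 2, without either NTC replicate and without either knock-down replicate. The count of 3 falls in the list became 1 without NTC replicate 2.

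Of 29 tested genes of the smooth muscle contractile apparatus, 21 rose and 1 (Smtnl2) fell, with a median of 1.37. Tagln, the actin-binding protein SM22-alpha, rose from 4.81 and 4.402 CPM to 214 and 231 CPM (5.59 ± 0.25, adjusted p = 1.34e-10). Cnn1, calponin, rose from 0.229 and 0.66 CPM to 12.5 and 12.5 CPM (4.70 ± 0.44), and Myl9, the regulatory light chain of smooth muscle myosin, from 2.52 and 1.54 CPM to 53.4 and 52.6 CPM (4.69 ± 0.28). The tropomyosin Tpm1 rose by 2.96 ± 0.13, calponin 2 (Cnn2) by 2.73 ± 0.13 and caldesmon (Cald1) by 2.72 ± 0.14, all from at least 26.1 CPM in the stem cells. Myh11, the smooth muscle myosin heavy chain that marks mature cells, was at 1.603 and 0.88 CPM in the stem cells and 1.89 and 3.57 CPM in the NTC cells and did not pass (adjusted p = 0.129). Myocd, the master co-activator of these genes, had 2 counts in the stem cells and 7 in the NTC cells, too few for the test. The fall of Smtnl2 was lost without stem cell replicate 1, without NTC replicate 1 and without NTC replicate 2. The actin genes are nearly identical in their coding parts, and how reads that fit several of them were counted is not given in the sources used here, so the share of each actin is uncertain.

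Regulators of smooth muscle moved both ways, 10 up and 3 down of 19, with a median of 1.15. Srf, which binds the CArG box of contractile genes, rose from 43.7 and 46.4 CPM to 89.8 and 73.6 CPM (0.86 ± 0.14, adjusted p = 0.000115). Prrx1, a homeobox factor of mesenchyme, had no count in the stem cells and was at 10.9 and 12.7 CPM in the NTC cells, at least 35.1-fold higher. The 3 that fell were the forkhead factor Foxf2 (-2.24 ± 0.44) and the GATA factors Gata6 (-1.76 ± 0.17) and Gata4 (-1.16 ± 0.20). Gata6 went from 89.8 and 76.6 CPM to 26.2 and 22.7 CPM. Mrtfa and Mrtfb, the actin-regulated partners of Srf, did not pass, with differences of 0.28 ± 0.16 and -0.28 ± 0.16.

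The promoters of genes in these lists that Srf or TEAD factors are known to bind are shown because these genes rose together. Each is 220 bases that end just before the gene's start, 5′ to 3′ on the gene's strand, from RefSeq on GRCm38.p6. Capitals in the first 5 mark a CArG box, the Srf element, exact or with 1 letter off, and in the last 2 the letters CATTCC on either strand, the core of the TEAD element. Matches of the 2 motifs did not overlap in these 7 windows.
Acta2: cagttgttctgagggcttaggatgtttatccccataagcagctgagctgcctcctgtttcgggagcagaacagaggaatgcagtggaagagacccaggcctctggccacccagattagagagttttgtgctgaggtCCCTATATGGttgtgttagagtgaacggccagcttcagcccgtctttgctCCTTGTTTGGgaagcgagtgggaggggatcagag
Myl9: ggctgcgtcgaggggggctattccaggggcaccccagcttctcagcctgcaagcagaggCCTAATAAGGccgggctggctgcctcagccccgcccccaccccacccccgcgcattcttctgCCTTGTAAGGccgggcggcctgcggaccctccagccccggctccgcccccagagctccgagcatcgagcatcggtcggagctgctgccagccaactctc
Cnn2: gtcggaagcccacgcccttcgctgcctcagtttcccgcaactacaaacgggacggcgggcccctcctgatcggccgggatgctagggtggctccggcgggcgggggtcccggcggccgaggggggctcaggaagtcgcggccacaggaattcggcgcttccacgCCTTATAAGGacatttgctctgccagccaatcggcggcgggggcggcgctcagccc
Srf: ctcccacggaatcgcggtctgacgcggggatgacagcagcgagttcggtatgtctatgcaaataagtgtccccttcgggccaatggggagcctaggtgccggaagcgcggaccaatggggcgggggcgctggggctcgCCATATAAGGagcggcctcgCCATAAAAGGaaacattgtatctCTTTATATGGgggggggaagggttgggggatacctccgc
Actc1: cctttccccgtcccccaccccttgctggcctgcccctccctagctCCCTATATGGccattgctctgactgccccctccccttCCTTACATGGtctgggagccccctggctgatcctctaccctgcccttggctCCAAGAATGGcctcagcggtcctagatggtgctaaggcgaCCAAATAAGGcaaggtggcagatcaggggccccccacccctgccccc
Ccn1: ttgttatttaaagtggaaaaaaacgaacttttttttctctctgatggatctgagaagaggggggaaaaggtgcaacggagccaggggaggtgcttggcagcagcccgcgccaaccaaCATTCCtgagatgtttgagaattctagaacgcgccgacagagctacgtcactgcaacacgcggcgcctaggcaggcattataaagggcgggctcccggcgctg
Ankrd1: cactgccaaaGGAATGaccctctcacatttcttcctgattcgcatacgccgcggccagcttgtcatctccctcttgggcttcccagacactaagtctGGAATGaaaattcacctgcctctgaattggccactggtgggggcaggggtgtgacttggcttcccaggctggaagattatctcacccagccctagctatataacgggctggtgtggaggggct
These windows lie at chr19:34255374-34255593 on the minus strand (Acta2), chr2:156775244-156775463 on the plus strand (Myl9), chr10:79988380-79988599 on the plus strand (Cnn2), chr17:46556163-46556382 on the minus strand (Srf), chr2:114052876-114053095 on the minus strand (Actc1), chr3:145649986-145650205 on the minus strand (Ccn1) and chr19:36119845-36120064 on the minus strand (Ankrd1), each upstream of the annotated first exon.

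With positions counted back from the start, Acta2 held its CArG-like runs at -84 and -34, each 1 letter off, and Myl9 held an exact box at -161 and a run 1 letter off at -99. Cnn2 held an exact box at -56, Srf exact boxes at -82 and -62, and Actc1 an exact box at -47. Over 300-base promoters (250 bases before to 50 after the start), an exact CArG box on either strand stood in 535 of 32851 promoters (1.63%), and CATTCC on either strand in 14.7%. Of contractile genes with a promoter in the table, 4 of 27 (14.8%) held an exact CArG box, as did 3 of 18 smooth muscle regulators (16.7%) and 4 of 27 striated muscle genes. By gene, the share was 1.81% over all 27025 genes, 2.44% over genes higher past 2-fold (28 of 1148) and 1.22% over genes lower past 2-fold (7 of 576). Runs with at most 1 letter off, exact boxes included, were frequent. They stood in 21.1% of promoters and 23.8% of all genes, in 10 of 27 contractile genes (37%), 7 of 18 smooth muscle regulators (38.9%) and 13 of 27 striated muscle genes (48.1%). CATTCC stood in 12 of 19 genes of the YAP and TEAD list (63.2%), in 40.7% of the contractile genes and in 37% of the striated muscle genes, against 16.6% of all genes. A match of letters is a description of the window and no evidence of binding in these cells. These lists were drawn up from what is known of the genes, with earlier results of these data also known. Some members were first found through these motifs.

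Genes for fibrillar collagens and the enzymes that fold, trim and cross-link them rose in 18 of 25 cases, with a median of 2.04. Beside the collagen I and III genes above, Col5a2 rose from 1.83 and 1.76 CPM to 40.2 and 34.1 CPM (4.34 ± 0.28) and Col5a1 by 3.48 ± 0.17. The lysyl oxidase Loxl2, which cross-links collagen, rose from 10.3 and 14.8 CPM to 211 and 215 CPM (4.08 ± 0.18). Serpinh1, the collagen chaperone HSP47, was already at 482 and 444 CPM in the stem cells and reached 1037 and 993 CPM (1.13 ± 0.12), and the procollagen protease Bmp1 rose by 2.77 ± 0.15. The collagen prolyl hydroxylase subunit P4ha2 (-0.50 ± 0.12) and Col27a1 (-0.54 ± 0.20) fell. Both calls were lost without NTC replicate 2.

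Matricellular and elastic fibre genes had one of the highest list medians, 3.33, with 26 of 31 higher and 1, Spp1 (osteopontin), lower, or 2 lower without stem cell replicate 2. Thbs1, thrombospondin 1, rose from 1.83 and 1.54 CPM to 168 and 171 CPM (6.62 ± 0.21). The fibrillins Fbn2 and Fbn1, which form microfibrils, rose by 5.40 ± 0.19 and 3.33 ± 0.16, and the small proteoglycan Bgn by 5.72 ± 0.41. Fn1, fibronectin, was among the 5 most abundant genes of the NTC cells and rose from 1385 and 1698 CPM to 2588 and 2423 CPM (0.70 ± 0.14, adjusted p = 0.000664). Eln, elastin, stayed low at 0.916 and 0.88 CPM and 1.89 and 3.34 CPM and did not pass.

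Of 18 tested basement membrane genes, 8 rose and 3 fell, and the median was 0.20. The common collagen IV chain Col4a1 was at 1548 and 1408 CPM in the stem cells and 1529 and 1469 CPM in the NTC cells (0.02 ± 0.14, adjusted p = 0.926). Lama1 and Lamc1, chains of the early embryonic laminin, fell by -0.73 ± 0.12 and -0.62 ± 0.12, and Lama3 by -1.91 ± 0.26. Lama5, the laminin chain of later basement membranes, rose from 227 and 261 CPM to 586 and 516 CPM (1.17 ± 0.13). The neighbouring X-linked chains Col4a5 and Col4a6 rose by 5.07 ± 0.33 and 4.00 ± 0.25, from at most 2.98 CPM to at least 47.0 CPM.

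In this list the NTC cells also differed from the untreated Sca1 cells. The contrast of NTC with untreated cells, which tests the difference between them directly, called 697 genes (4.99%). Of these, 542 were higher (3.88%) and 155 lower (1.11%) in the NTC cells, and past 2-fold 105 (0.752%) and 21 (0.15%). With library totals in place of TMM factors, 493 of 511 calls (96.5%) were higher, against 77.8%. The split was 1300 higher and 1086 lower (54.5% higher) without the code 56 libraries and 819 and 442 (64.9%) with a replicate block by description number. Of the 18 basement membrane genes, 14 were called higher in the NTC cells and none lower, with a median of 0.76 against 0.01 for all genes. Col4a1 was 0.79 ± 0.14 higher on the log2 scale (adjusted p = 0.00358, untreated levels of 754 and 979.5 CPM), Lama1 0.70 ± 0.13 and Lama5 0.80 ± 0.13. Untreated cells minus stem cells gave -0.77 for Col4a1 and -1.43 for Lama1 on the log2 scale, against 0.02 and -0.73 for the NTC cells. Calls of Col4a1 and Lama1 were lost without either NTC replicate and that of Lama5 without NTC replicate 1. Only 3 genes of the list were called higher without NTC replicate 1 and 6 without NTC replicate 2. The whole count of 697 fell to 57 and 97 in the same fits. Without stem cell replicate 1 or 2 it rose to 1501 and 1517, and without untreated replicate 2 it fell to 370. Without knock-down replicate 1 or 2 it was 310 and 303.

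**Figure D3:**
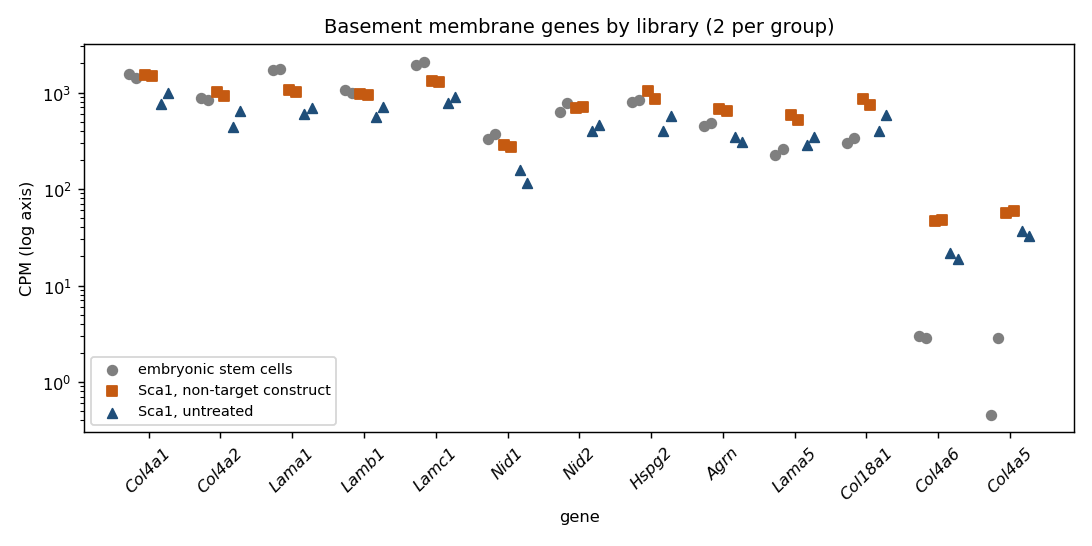
CPM on a log axis of 13 of the 18 tested basement membrane genes, with 1 marker per library and 2 libraries per group. The 13 were chosen by hand, without Lama3 among others, so they do not give the share of the list. In the list, 14 of 18 were called higher in the NTC cells than in the untreated cells. The NTC libraries lie above both untreated Sca1 libraries for the 13 genes, and close to the stem cell libraries for Col4a1, Lamb1 and Nid2.

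Among integrins, the receptors for these proteins, 6 of 16 rose and 1 fell, with a median of 0.33. Itga8 rose by 3.89 ± 0.49, and Itgb1, the shared beta chain, from 306 and 364 CPM to 678 and 674 CPM (1.01 ± 0.12). Itgb7, a leukocyte chain, fell by -1.45 ± 0.22. NTC cells were above the untreated cells in 7 of the 16, but in none without either NTC replicate, and in 4 and 3 without untreated replicates 1 and 2.

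Mesenchymal genes rose beside epithelial ones. Of 16 genes of the mesenchymal transition 12 rose and none fell, with a median of 2.85. Cdh2, N-cadherin, rose from 4.81 and 9.46 CPM to 87.5 and 82.2 CPM (3.56 ± 0.22), and the transcription factor Twist1 from 1.37 and 0.66 CPM to 16.5 and 15.6 CPM (3.95 ± 0.38). Cdh11, a cadherin of mesenchyme, rose by 5.57 ± 0.35. Vim, vimentin, the usual mesenchymal filament, was at 567 and 466 CPM and 476 and 484 CPM and did not pass (adjusted p = 0.595). Of 27 epithelial genes 16 rose, with a median of 0.73, and Spint1 alone fell. The call for Spint1 was lost without any 1 of stem cell replicate 1, either NTC replicate or either knock-down replicate. Krt18 and Krt8, the keratins of simple epithelia, rose from 10.1 and 7.48 and 19.2 and 13.6 CPM to 166 and 166 and 96.9 and 93.2 CPM (4.24 ± 0.16 and 2.53 ± 0.16). Cdh1, E-cadherin, was at 633 and 703 CPM in the stem cells and 613 and 658 CPM in the NTC cells and did not pass (adjusted p = 0.766).

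Genes of the primitive streak and early mesoderm rose in 13 of 20 cases, with a median of 2.63. T (brachyury), the factor of the streak, was at 55.9 and 45.3 CPM in the stem cells already and rose to 87.9 and 90.3 CPM (0.82 ± 0.18, adjusted p = 0.00193). Fgf8, a streak ligand, had 3 counts in the stem cells and was at 32.9 and 24.1 CPM in the NTC cells (ratio of 84.2, 28.5 to 411). Tbx6, a factor of paraxial mesoderm, rose from 0.687 and 0.44 CPM to 5.2 and 4.01 CPM (2.96 ± 0.55). Hand1, Msgn1 and Osr1 had no count in the stem cells and rose, Hand1 at least 21.1-fold, Msgn1 at least 16.4-fold and Osr1 at least 11.2-fold. The 5 that fell were Gata4, Tcf15, Eomes, Bmp4 and Pdgfra, and that count was 3, 2, 2 and 1 without stem cell replicate 1, stem cell replicate 2, NTC replicate 1 and NTC replicate 2.

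Hox genes, the homeobox factors of axial identity, were nearly silent in the stem cells and present in the NTC cells in all 4 clusters. Of 39 genes 32 had enough counts for the test, and 31 of these rose. A gene with few counts overall passed the filter only if 1 of the groups had enough, so the count stands for the 32 alone. Their summed level was 31.6 and 28.6 CPM in the stem cells and 611 and 579 CPM in the NTC cells. The median difference was 5.69, or 5.12 with the 6 genes of no stem cell count set at their bound. By cluster, 9 of 9 Hoxa, 9 of 9 Hoxb, 6 of 7 Hoxc and 7 of 7 Hoxd genes rose.

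The most abundant was Hoxd3, at 0.229 and 0.66 CPM in the stem cells and 88.9 and 81.4 CPM in the NTC cells (7.47 ± 0.30, adjusted p = 4.59e-12). Hoxa3 rose from 0.687 and 1.32 CPM to 54.1 and 57.5 CPM (5.74 ± 0.31), and Hoxd4 reached 52.7 and 43.02 CPM. Genes of higher paralog number were present too, such as Hoxb9 (30.7 and 30.1 CPM), Hoxc8 (22.7 and 21.8 CPM) and Hoxd9 (23.9 and 20.1 CPM). Hoxc13 was the exception, at 7.33 and 8.36 CPM in the stem cells and 2.6 and 2.23 CPM in the NTC cells (-1.69 ± 0.43, adjusted p = 0.00559, lost without NTC replicate 2 at 0.075), and 2 genes of the list were lower in the fits without either untreated replicate or without knock-down replicate 1. Of the 32 Hox genes, 4 were higher and 1 lower in the NTC cells than in the untreated cells, with Hoxd4 1.42 ± 0.20 (adjusted p = 0.000832) and Hoxd3 1.06 ± 0.16 higher. Both of these calls were lost without NTC replicate 1, with adjusted p of 0.0508 and 0.0546.

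**Figure D4:**
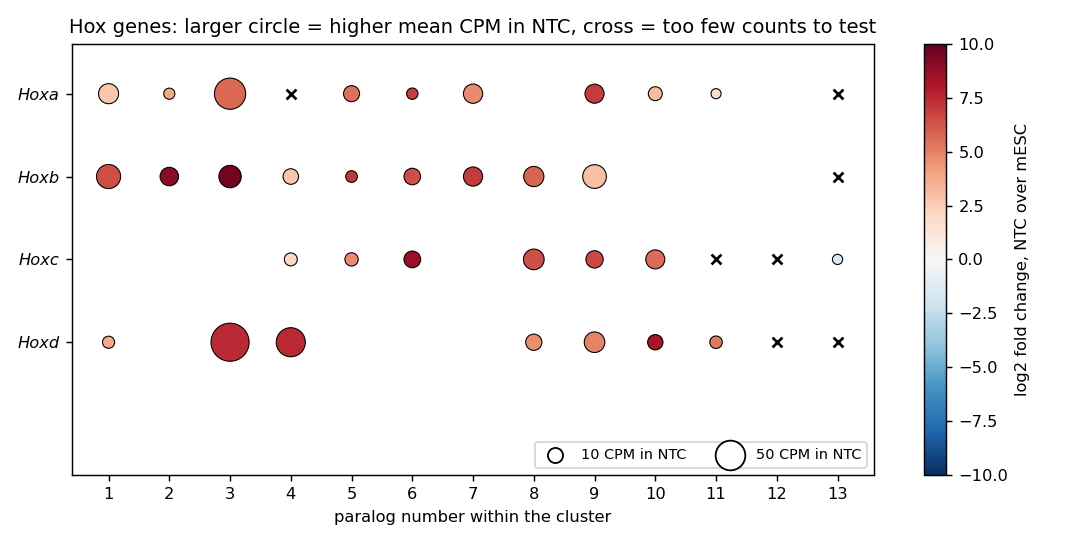
Hox genes by cluster and paralog number, coloured by the log2 fold change of NTC cells over stem cells, with larger circles for a higher mean CPM in the NTC cells and crosses for the 7 genes with too few counts to test. Red circles run from paralog 1 to paralog 11, Hoxc13 is blue, and fitted values of genes with no stem cell count depend on the prior count.

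The homeobox regulators and partners of Hox genes followed in 8 of 12 cases, with none lower and a median of 1.30. Cdx2 rose from 7.098 and 6.16 CPM to 75.9 and 76.5 CPM (3.52 ± 0.18) and Cdx4 from no count to 15.1 and 14.7 CPM (at least 44.3-fold). Cdx1 was at 52.4 and 44.02 CPM and 54.6 and 54.8 CPM and did not pass.

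Imprinted genes, expressed from 1 parental copy and active in growth of the embryo and placenta, rose in 24 of 32 cases, with a median of 1.21. Igf2, a fetal growth factor, rose from 12.6 and 9.02 CPM to 1126 and 1078 CPM (6.67 ± 0.28, adjusted p = 5.02e-09). Peg10, Peg3 and Mest, all expressed from the paternal copy, rose to 2290 and 2326, 972 and 811 and 909.9 and 949 CPM (3.63 ± 0.14, 3.76 ± 0.15 and 2.87 ± 0.12). Cdkn1c, a maternally expressed brake on the cell cycle, rose from 6.41 and 5.28 CPM to 54.6 and 49.7 CPM (3.15 ± 0.21). Dlk1, a Notch-like membrane protein, rose from 5.95 and 3.52 CPM to 429 and 420.2 CPM (6.48 ± 0.20). It was also above the untreated cells, which had 117 and 89.2 CPM (difference of 2.03 ± 0.14, adjusted p = 6.13e-07). The 2 that fell, Kcnq1ot1 and Mcts2, both lost the call without NTC replicate 1 and without NTC replicate 2. Counts do not tell the parental copies apart.

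Feedback genes and targets of Wnt signalling rose in 21 of 25 cases, and none fell (median 1.51). Axin2, a negative regulator induced by the pathway, rose from 82.9 and 80.8 CPM to 190.5 and 160.3 CPM (1.10 ± 0.13), and Nkd1, another, from 9.85 and 9.46 CPM to 74.7 and 68.4 CPM (2.89 ± 0.18). Among ligands, Wnt5a rose from 0.229 and 0.88 CPM to 46.1 and 50.4 CPM (6.35 ± 0.33) and Wnt8a by 3.34 ± 0.29. In the Notch pathway 12 of 14 rose (median 1.64), with the receptor Notch3 from 76.01 and 81.4 CPM to 196 and 193 CPM (1.30 ± 0.15), Notch2 by 1.32 ± 0.14 and the ligand Dll1 by 2.70 ± 0.31. The 2 that fell were Notch4 and the target Hes1, and neither call held without NTC replicate 2, while 1 did without stem cell replicate 1. Of 20 BMP pathway genes 14 rose (median 1.38), with the targets Id2 (3.65 ± 0.24) and Msx1 (4.61 ± 0.29), and Bmp4 alone fell. Its call was lost without stem cell replicate 2 and without either NTC replicate, and 3 genes fell without stem cell replicate 1.

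TGF-beta and activin genes split, with 10 of 25 higher and 5 lower (median 0.30), and the lower count became 3 without NTC replicate 1. The ligand Tgfb2 had 0 and 0.88 CPM in the stem cells and 70.2 and 65.98 CPM in the NTC cells (7.14 ± 0.36). Without stem cell replicate 2 the stem cells held no count of it, so that only a lower bound would be possible. The signal transducer Smad3 rose by 1.90 ± 0.18, and the activin subunit Inhbb fell from 28.9 and 37.9 CPM to 7.33 and 6.02 CPM (-2.32 ± 0.26). FGF genes split too, 9 up and 6 down of 22, with a median of 0.03. Spry4, a feedback inhibitor, fell from 209 and 242 CPM to 65.5 and 67.98 CPM (-1.75 ± 0.13), while the phosphatase Dusp4 rose by 2.19 ± 0.18. Of 5 tested PDGF genes 2 rose, 1 fell and 2 did not pass (median 0.67). Pdgfrb, the receptor carried by smooth muscle and its precursors, rose from 8.47 and 5.502 CPM to 68.3 and 55.95 CPM (3.15 ± 0.27). The ligand Pdgfc rose by 2.73 ± 0.24. The receptor Pdgfra fell by -0.35 (adjusted p = 0.0226), and did not pass with library totals (-0.23, adjusted p = 0.316). Pdgfrb was 1.29 ± 0.24 above the untreated cells (adjusted p = 0.00586), a call that was lost without NTC replicate 1 (0.119) and whose size was 1.97 without untreated replicate 1.

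Targets and partners of YAP and TEAD, which respond to cell tension and contact, rose in 18 of 24 cases (median 1.09). Ccn1 and Ccn2, matricellular targets whose promoter is shown above for the first, rose from 22.4 and 24.6 and 21.5 and 27.7 CPM to 144 and 147 and 75.4 and 76.9 CPM (2.62 ± 0.14 and 1.63 ± 0.15). Ankrd1 had 1 count in the stem cells and 6.14 and 4.24 CPM in the NTC cells (ratio of 46, 7.85 to 1857). Yap1 itself was at 269 and 249 CPM and 256 and 269 CPM and did not pass (adjusted p = 0.909). The count of 3 falls became 1 without NTC replicate 2.

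**Figure D5:**
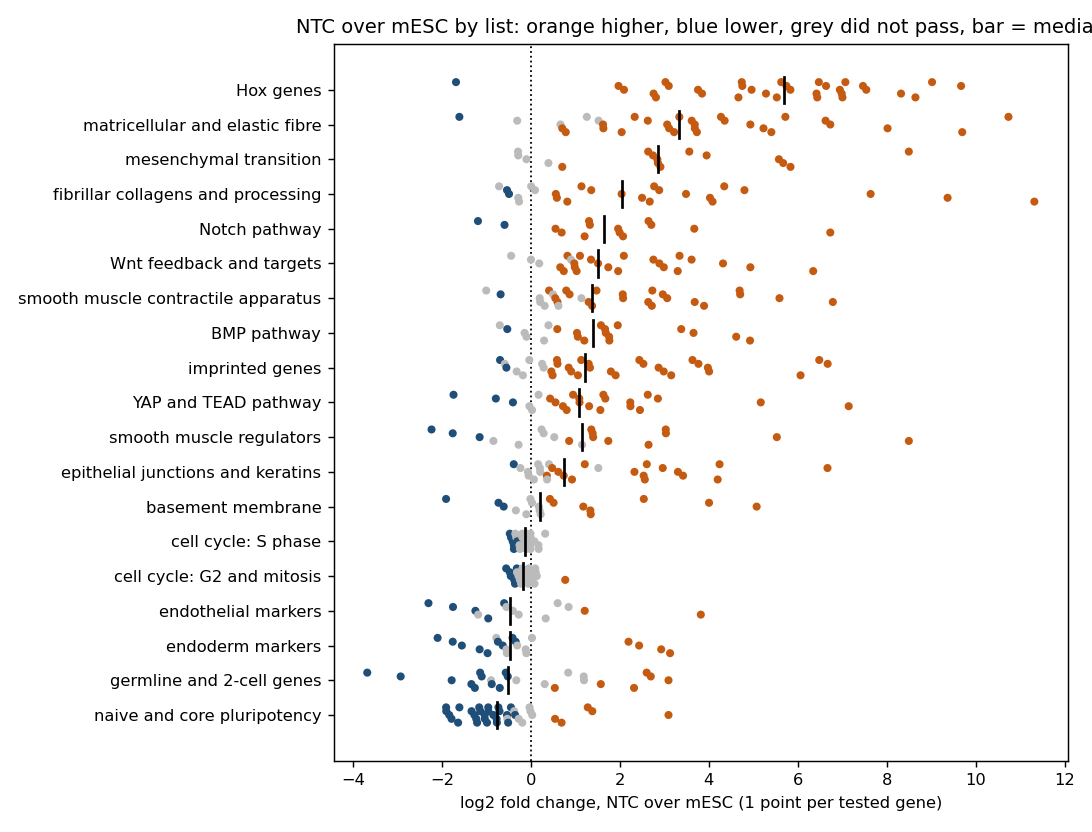
Log2 fold changes of NTC cells over stem cells for the tested genes of 19 lists, 1 point per gene, coloured by direction among genes that passed the test, with a bar at each list's median and a dotted line at the median of all genes. Hox, matricellular and mesenchymal lists lie furthest to the right, cell cycle lists sit near 0 and the pluripotency list lies to the left.

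Markers of other cell types that a sorted culture could hold were mixed, and their part in the results above was not tested. Of 19 tested striated muscle genes 9 rose and 5 fell (median 0.35), and their summed level was 173.1 and 205.8 CPM in the stem cells and 241.1 and 232.3 CPM in the NTC cells. Actc1 and Acta1, the striated alpha-actins, rose (Acta1 to 31.9 and 28.3 CPM), while the factors that define skeletal muscle, Myod1, Myog and Myf5, had no count in the NTC cells and the cardiac factor Nkx2-5 had 1. The 5 falls became 3 without stem cell replicate 1 and without NTC replicate 1.

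Of 14 endothelial genes 2 rose and 5 fell (median -0.48), with summed levels of 363.6 and 350.1 CPM in the stem cells and 326.4 and 323.7 CPM in the NTC cells. Flt1, a VEGF receptor, rose from 10.5 and 7.48 CPM to 134 and 121 CPM (3.82 ± 0.20), while Kdr, the main VEGF receptor of endothelium, was at 1.603 and 4.402 CPM and 4.49 and 4.68 CPM. Pecam1, an adhesion protein that naive stem cells also carry, fell by -0.96 ± 0.12. The call for Plvap, the other riser, was lost without stem cell replicate 1 and without either NTC replicate, and the falls became 3 without NTC replicate 1. Of 16 blood cell genes only 5 had counts enough. Ptprc (CD45) and the globins Hba-a1 and Hbb-bt had no count in the NTC cells, Kit fell by -0.81 ± 0.13 and Lmo2 rose from 1.15 and 1.76 CPM to 24.6 and 21.2 CPM (3.94 ± 0.34). Runx1 also fell, and its call was lost without stem cell replicate 2 and without NTC replicate 1. Neural genes gave 4 rises and 2 falls of 11 (4 falls without stem cell replicate 1), with Nes (nestin), a filament of neural and other progenitors, at 10.5 and 7.92 CPM and 193 and 163 CPM (4.27 ± 0.18), Pax6 at 15 counts in each group and no count of Olig2 in the NTC cells.

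Of 20 endoderm genes 9 fell and 4 rose (median -0.48), the falls including Gata6, Gata4 and Amn, a partner of cubilin (-1.56 ± 0.17). That count became 5 without NTC replicate 1, and Alb and Cer1 had no count in the NTC cells. Of 17 trophoblast genes 10 rose (median 0.92). They included Cdx2, Krt7 (to 16.1 and 13.4 CPM) and Gata2 (2.94 ± 0.31), while Prl3d1, a hormone of trophoblast giant cells, had no count. The 3 that fell were Tead4, Eomes and Bmp4, a count of 1, 1 and 0 without stem cell replicate 2, NTC replicate 1 and NTC replicate 2. Of 28 genes of fibroblasts, cartilage, bone and fat only 15 had counts enough. Among these 9 rose, 2 fell and 4 did not pass (median 1.30), or 1 fell with library totals. The rises included Sox9, which specifies cartilage, from no count to 7.33 and 6.24 CPM (at least 20.1-fold). Another was the pericyte proteoglycan Cspg4 (54.2 as a count ratio, 9.31 to 2180). Of the markers fixed for this list, Dcn, Lum, Thy1, Runx2, Pparg and Rgs5 are not reported here. Sox9 and Cspg4 are therefore examples and do not give the direction of the set. Of 17 surface genes of the Ly6 family and of progenitors 8 rose and 6 fell (median 0.60), or 3 fell with library totals. Prom1 (CD133) rose by 3.94 ± 0.29, and Cd44, the hyaluronan receptor, from 3.43 and 9.02 CPM to 50.3 and 44.4 CPM (2.91 ± 0.27), while Nt5e (CD73) fell by -1.75 ± 0.19.

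Germline genes fell in 11 of 23 cases and rose in 6 (median -0.53). Khdc3 and Dazl, given above, fell furthest, and Sycp1, a protein of meiotic chromosomes, fell from 32.05 and 47.98 CPM to 11.1 and 12.04 CPM (-1.79 ± 0.22). The count of falls was 7 without either NTC replicate. Rises were seen for Rhox9, a homeobox gene of the reproductive tract (2.69 ± 0.42), and for members of the Zscan4 family, whose copies share sequence and whose counts are therefore uncertain.

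Of 26 S phase genes of the cell cycle none rose and 6 fell, with a median of -0.14, and of 24 genes of G2 and mitosis 1 rose and 6 fell, with a median of -0.18. Both counts of falls moved with the libraries in the fit, up as well as down. Without the code 56 libraries 13 S phase genes and 14 mitosis genes fell, and 2 of the latter rose. A replicate block by description number gave 10 falls in the mitosis list. The S phase count was 2, 1 and 0 without stem cell replicate 1, NTC replicate 1 and NTC replicate 2, and 3 without either knock-down replicate. The mitosis count was 2, 11, 0 and 1 without stem cell replicate 1, stem cell replicate 2, NTC replicate 1 and NTC replicate 2. With library totals alone no gene of either list fell. Foxm1, a driver of mitotic transcription, rose by 0.77 ± 0.12. Mki67, the proliferation marker, was at 308 and 395 CPM and 410.1 and 331 CPM. Among cyclins D and inhibitors of cyclin-dependent kinases 8 of 11 rose and 1 fell (median 0.73), or 2 fell with DESeq2. The fall did not hold in all fits with a library left out. The rises included Ccnd2 from 41.7 and 19.6 CPM to 129 and 123 CPM (2.04 ± 0.26) and the inhibitor locus genes Cdkn2a (1.79 ± 0.27) and Cdkn2b (2.03 ± 0.32).

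Genes known to respond to viral RNA, to DNA damage or to other cell stress made up 3 lists. Of 24 genes of the interferon and viral RNA response 7 rose (29.2%) and 8 fell (33.3%), with a median of -0.04. Over all tested genes 19.6% were higher and 15.5% lower. Ddx58 (RIG-I), a sensor of viral RNA, fell from 101 and 95.5 CPM to 28.8 and 34.3 CPM (-1.64 ± 0.16), and Ifitm1 rose from 37.5 and 28.6 CPM to 98.1 and 91.4 CPM (1.52 ± 0.20). The count of falls was 4, 5 and 4 without stem cell replicate 1, NTC replicate 1 and NTC replicate 2. Against the untreated Sca1 cells, 1 of the 24 was higher and none lower in the NTC cells, where 3.88% of all genes were higher. Of 21 p53 targets 6 rose (28.6%) and 3 fell (14.3%), with a median of 0.11, and the share of falls was close to that of all tested genes. Both counts were smaller without NTC replicate 1. Without the code 56 libraries 6 fell, and with the block by description number 3 rose. Cdkn1a (p21) rose from 172 and 123 CPM to 223 and 230.5 CPM (0.62 ± 0.15), with a fitted difference of 0.40 without stem cell replicate 2. Of 24 genes of the ATF4 and unfolded protein responses 6 rose (25%) and 1 fell (4.17%), with a median of 0.27. More of them rose without the code 56 libraries. Psat1, an enzyme of serine synthesis, rose by 1.01 ± 0.12 and the stress factor Atf3 by 2.39 ± 0.31. The fall, of Xbp1, was lost without stem cell replicate 1 and without NTC replicate 1.

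The list of H3K4 methylation and other lysine methylation enzymes, Setd7 included, had 5 rises (25%) and 6 falls (30%) of 20 (median -0.03). Both counts were smaller without NTC replicate 1 and without NTC replicate 2. Dpy30, a core subunit of the H3K4 methyltransferase complexes, fell from 198 and 213 CPM to 115 and 116 CPM (-0.83 ± 0.11). Of 25 genes of Polycomb and of H3K27 demethylases 4 rose (16%) and 6 fell (24%), against 19.6% and 15.5% of all tested genes (median -0.05). Eed, a core subunit of the H3K27 methyltransferase complex, fell from 326 and 313 CPM to 167 and 169 CPM (-0.92 ± 0.11), and Phf19, an accessory protein of it, rose by 1.44 ± 0.32. The rises became 2 without stem cell replicate 2 and without NTC replicate 1, the falls 3 without either NTC replicate. Jarid2, at 498 and 2588 CPM in the stem cells and 377 and 352 CPM in the NTC cells, was high in stem cell replicate 2, one of the libraries of code 56, and did not pass. Among 12 genes of DNA methylation the 5-methylcytosine oxidases went separate ways. Tet1 fell from 452 and 593 CPM to 219.6 and 224 CPM (-1.23 ± 0.13) and Tet2 by -1.34 ± 0.25, while Tet3 rose from 10.99 and 11.7 CPM to 43.7 and 55.7 CPM (2.13 ± 0.19). The de novo methyltransferase Dnmt3a rose by 0.87 ± 0.13. The 4 rises of this list became 2 without either NTC replicate.

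In metabolism, 7 of 21 genes of glucose uptake and glycolysis rose and 3 fell (median 0.27), or 5 fell without the code 56 libraries and with the block by description number. Slc2a3, a neuronal and embryonic glucose transporter, was the 4th most abundant gene of the NTC cells and rose from 1384 and 1826 CPM to 2866 and 2992 CPM (0.87 ± 0.14). Ldhb, a lactate dehydrogenase subunit, rose by 1.63 ± 0.13 and the lactate exporter Slc16a3 by 1.59 ± 0.23. Hexokinase 2 (Hk2) fell from 448 and 442 CPM to 227 and 232 CPM (-0.95 ± 0.13), Pfkp, a phosphofructokinase, by -1.21 ± 0.20 and the pyruvate dehydrogenase kinase Pdk1 by -0.82 ± 0.12. Of 20 genes of cholesterol synthesis and uptake 1 rose, past 2-fold, and 3 fell (median -0.15). That share of falls is close to the 15.5% of all tested genes that were lower, so it does not set the list apart. The count of falls was 1 with library totals and with DESeq2. It also moved with the libraries in the fit, up as well as down.

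The other matrix lists also held genes that were higher in the NTC cells than in the untreated Sca1 cells. In the fibrillar collagen list these were 12 of 25 with none lower (median 0.67), and in the matricellular list 13 of 31 with none lower (median 0.69). Without NTC replicate 1 and without NTC replicate 2 the counts were 3 and 5 in the first list and 8 and 8 in the second, and without untreated replicate 2 the first had 7. Col3a1 was 1.39 ± 0.11 higher (adjusted p = 2.84e-06), with 239 and 263 CPM in the untreated cells, and Fn1 1.06 ± 0.14 (adjusted p = 0.000338, 1214 and 1185 CPM). Of the 29 contractile genes 2 were higher and 3 lower (median -0.20). Acta2 (427 and 244 CPM), Tagln (373 and 228 CPM) and Cnn1 (21.01 and 19.4 CPM) of the untreated cells did not differ from the NTC cells at an adjusted p of 0.05, with differences of -0.29 ± 0.21, -0.44 ± 0.17 and -0.70 ± 0.25. Because both groups are compared with the same 2 stem cell libraries, a likeness of their differences from the stem cells is not given as a result.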

How the data were processed

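RNA-seq libraries of C57BL/6 mouse cells were taken in 4 groups of 2. The authors deposited whole-number read counts per RefSeq transcript, which bear no scaling, judged from their totals. SAMtools 0.1.17, edgeR 0.19 and BWA 0.5.9 are listed, with no role, in the submitters' processing notes. Genome build, counting program and library strand: not given in the sources used here. Genes that share reads, such as actins or Zscan4 copies, and overlapping or antisense genes can therefore not be told apart.

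Of 29614 transcripts, 28985 took a gene name from a RefSeq table and 173 from GENCODE vM21, and 456 had none. The rule of 1 row per gene, the row of highest total, left 23483 genes. Counts were filtered with filterByExpr, which kept 13966 genes, scaled with TMM factors and fitted with edgeR 4.0.16 (R 4.3.3). All 8 libraries entered the model with a mean for each group, which left 4 residual degrees of freedom (common dispersion 0.0133), with robust quasi-likelihood F tests and Benjamini-Hochberg adjustment at 0.05. A standard error is the log2 fold change divided by the root of its F statistic, and log-CPM used a prior count of 2. Bounds for genes without counts in a group set that group's total to 3 counts, and genes with 1 to 3 counts have a count ratio with an exact 95% interval.

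The comparison was NTC against mESC, and NTC against untreated Sca1 tested where the transduced cells differed. The groups share replicate numbers. Deviations of same-numbered NTC and stem cell libraries from their group means did not correlate (r = 0.00593), but these pairs share no library code. Same-numbered untreated and stem cell libraries, which do share a code, had r = 0.265. The main fit used no block, and blocks by title and by description number were tried as alternatives. Alternatives were other size factors, DESeq2 1.42.0, other filters and thresholds, replicate blocks, summed transcripts and each library left out.

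The members and the gene lists were chosen with earlier results of these data known, and no list is independent support of a direction. Named genes were 8 label genes, the 15 largest changes each way with at least 20 CPM, no overlap and a symbol that is no Gm, Rik, clone or accession name, the 5 largest each way against untreated cells, the 5 most abundant genes per group, the defining members of each list and up to 3 changed members each way per list. Others, named to spell out small counts or as examples (Bgn, Bmp1, Cdh11, Col5a1, Col5a2, Gata2, Jarid2, Loxl2, Msgn1, Myl9, Osr1, Serpinh1, Wnt8a and 3 Hox genes among them), were chosen after their values were seen. A few members of the lists, though counted, are not reported here by name. Promoter sequences came from RefSeq on GRCm38.p6.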

Additional observations from a re-analysis of the deposited data

Results flagged for a closer look

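The 10 genes that differed most between NTC cells and untreated Sca1 cells, 5 each way, are given because the change from the stem cells then differs between the 2 kinds of Sca1 cell. The difference was tested directly by edgeR's quasi-likelihood test, as NTC minus untreated on the log2 scale, with Benjamini-Hochberg adjusted p.

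Dlk1, the Notch-like imprinted gene, was higher by 2.03 ± 0.14 (adjusted p = 6.13e-07). Cubn, which encodes the endocytic receptor cubilin, was at 439 and 558 CPM in the stem cells, 312 and 328 CPM in the NTC cells and 104 and 96.8 CPM in the untreated cells. It was higher than in the untreated cells by 1.67 ± 0.14 (adjusted p = 3.49e-06) and lower than in the stem cells by a log2 difference of -0.64 ± 0.13. Emilin1, an elastic fibre protein, was higher by 1.54 ± 0.18, at 68.3 and 59.3 CPM against 23.5 and 19.9 CPM. Aebp1, a collagen-binding matrix protein, was higher by 1.43 ± 0.17. Adamts1, a matrix protease, was higher by 1.46 ± 0.24 (adjusted p = 0.00197), and its call was lost without NTC replicate 1 (0.0546).

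The 5 lower genes were less stable. Dynlt1b, a dynein light chain with near-identical copies in the genome, stood at 4.49 and 3.79 CPM against 26.9 and 15.5 CPM (-2.38 ± 0.38, adjusted p = 0.00203), and its call was lost without NTC replicate 2 (0.0517). Bex4, an X-linked adaptor gene, differed by -1.67 ± 0.30, Dtx4, a ubiquitin ligase of the Deltex family, by -1.35 ± 0.32, Pmaip1 (Noxa), a p53 target that promotes apoptosis, by -1.23 ± 0.24 and Eomes, a factor of the streak, by -1.14 ± 0.28. These 4 calls were lost without untreated replicate 2 and without either NTC replicate, and those of Dtx4 and Eomes also without either knock-down replicate. Without untreated replicate 2 the differences were -1.30, -0.80, -0.77 and -0.70 for the 4 genes in the order named. Untreated replicate 2 is a library of code 56.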

How the results depend on the processing

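The 4898 changed genes of NTC against mESC ranged from 2906 to 5267 with 1 library left out, and 2866 of the 2906 were among the 4898. Of the settings kept with all libraries only a 1.5-fold threshold in the test moved the count by over 1.5 times, to 2093. Without the code 56 libraries the count of 4898 became larger than in any other fit. The 2367 changes past 2-fold ranged from 1907 (DESeq2) to 2685 (no filter). Setd7 rose in the fits run, by 1.95 to 2.51. The 697 differences between NTC and untreated Sca1 cells were less stable, from 57 to 1517 with 1 library left out. They came to 15 with the 1.5-fold threshold, 1148 with no filter, 1261 with a replicate block by description number and 2386 without the code 56 libraries, an alternative chosen after seeing the data. A fit that leaves 1 library in a group assumes that it varies like the other groups.

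The replicate block by title number gave 5097 and 815 differences in the 2 comparisons, and the block by description number 4481 in the first. The title block changed no call of the genes named in the text, of which 200 were tested and 179 called against the stem cells. The description block ended the call of 6 of them, DESeq2 of 8, library totals of 11 and the 1.5-fold threshold of 30. With 1 library left out in turn, 18 of the 179 lost the call at least once. Without the code 56 libraries 8 gained a call (Bex4, Fgf5, Jarid2, Kdr, Mki67, Mrtfa, Pou5f1 and Vim) and 2 lost it (Col27a1 and Kcnq1ot1). None of the 200 changed sign with a call in the leave-outs. In the lists, library totals left 0 falls among contractile, fibrillar collagen, epithelial, BMP, S phase and mitosis genes. They took the falls of early mesoderm from 5 to 2, of trophoblast from 3 to 1 and of the TGF-beta and activin list from 5 to 3. The falls of the interferon list went from 8 to 5, of the lysine methylation list from 6 to 3 and of the Polycomb and H3K27 demethylase list from 6 to 2. DESeq2 took the falls of the interferon list to 4, of early mesoderm to 3 and of striated muscle from 5 to 3. It took the rises of the lysine methylation list from 5 to 3 and of the Polycomb and H3K27 demethylase list from 4 to 2. The cause of these shifts was not tested. Depth limits genes under a few CPM, such as Myh11, Fgf5 and Myocd, where a difference may exist that these libraries could not show.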

Other observations

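Chromosome 6 stood apart from the others in the comparison of NTC cells with stem cells. Over its 505 genes of at least 10 CPM the median log2 difference was 0.155, with 28.1% higher and 10.7% lower. The medians of the other autosomes and the X chromosome lay between -0.14 (chromosome 13) and 0.044 (X chromosome, 24.9% higher). For untreated Sca1 cells minus stem cells the median of chromosome 6 was 0.059, below those of chromosome 15 (0.078) and the X chromosome (0.063). For NTC minus untreated cells the median of chromosome 6 was 0.092, the highest, with chromosome 17 next at 0.071. Chromosome 6 carries Nanog, Slc2a3, Mest, Peg10 and the Hoxa cluster. Gene copy number was not measured in these libraries.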
